A study of Mus musculus with 114 samples.

Results

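Fat cells carry receptors on their surface that read nutrients and local signals and that hold back the release of stored fat. The set described here held 7 such receptors of the mouse, chosen by name: Adora1, Ptger3, Ffar2, Ffar4, Hcar1, Hcar2 and Sucnr1. Of the 29132 genes in the table, 5 were receptors of this set (Adora1, Ptger3, Ffar2, Ffar4 and Sucnr1). Hcar1, the lactate receptor, and Hcar2, the receptor of beta-hydroxybutyrate and niacin, were not analysed here. All 5 receptors passed the filter on low values and were tested among 10343 genes.

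The study followed the adipocytes of male C57BL/6J mice through diet-induced obesity. Mice of 6 weeks of age were given a control chow (CD) or a diet rich in fat (HFD) and kept on it for 8, 20 or 34 weeks, and perigonadal fat was digested with collagenase to take the floating adipocyte fraction. RNA-seq of polyadenylated RNA gave 1 profile per mouse for 38 mice, with 6 mice in each group except CD at 34 weeks, which had 8. No group carried a transgene or a drug treatment, and age and time on the diet rose together, so that within a diet they cannot be told apart.

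Most of these receptors couple to the inhibitory G protein Gi. When a ligand binds, Gi lowers adenylyl cyclase activity, cAMP falls, and protein kinase A phosphorylates less of the lipolytic machinery, which is the opposite of what noradrenaline does through the beta receptors. Insulin reaches the same end by a different route, through the phosphodiesterase encoded by Pde3b, which breaks cAMP down. The ligands are made by fat tissue itself (adenosine, prostaglandin E2, lactate, succinate), by the liver (ketone bodies), by gut bacteria (acetate and other short-chain fatty acids) or come from the diet (long-chain fatty acids).

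Depth was 9275711 to 15480388 reads per mouse, so that 1 read was worth between 0.0646 and 0.108 CPM (counts scaled to a total of 1000000 in each mouse). The fewest reads on a receptor in any mouse were 122, for Ffar4 on HFD at 20 weeks. At 8 weeks the diets did not overlap in depth (10562845 to 12611013 reads on CD, 13201234 to 15480388 on HFD). The fraction expressed all 9 adipocyte markers (Adipoq, Plin1 and others), whose summed level ran from 16322 to 49136 CPM over the mice. Macrophage markers were present as well. Their summed level, over the 10 of 11 listed genes that were in the table, had a median of 595 CPM on CD and 1799 CPM on HFD at 8 weeks, 1204 against 6003 CPM at 20 weeks, and 3451 against 10077 CPM at 34 weeks. Of the lymphocyte markers, none of 8 passed the filter on low values, and the neutrophil gene Ly6g was at 0 in every mouse. On HFD at 8, 20 and 34 weeks, markers of lipid-associated macrophages rose in 7, 7 and 6 of 7 genes, of endothelium in 7, 6 and 6 of 7, of progenitors and fibroblasts in 4, 6 and 5 of 6, of mural cells in 4, 3 and 3 of 5, of mesothelium in 2, 0 and 0 of 3, and of neutrophils in 1, 0 and 0 of 2 tested (limma), while 29.8%, 38.3% and 27.5% of all genes tested were called higher.

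The 5 receptor genes lie on different chromosomes except for Ptger3 and Sucnr1, which are far apart on chromosome 3 (GRCm38.p6). The 2 receptors that differed between the diets were Ffar4, at chr19:38097079-38114263 on the plus strand, and Sucnr1, at chr3:60081869-60087566 on the plus strand. Ffar2 lies at chr7:30818031-30823775 on the minus strand. For Ffar4, Sucnr1 and Ffar2 the diet difference was called as changing from 8 to 34 weeks. The Ffar2 call was kept in only 3 of 9 other settings. The 250 bases before the annotated start of these 3 genes, from RefSeq, are shown for this reason. They are written 5′ to 3′ on the strand of the gene, with capitals marking matches to the motifs searched.
Ffar4 (chr19:38096829-38097078): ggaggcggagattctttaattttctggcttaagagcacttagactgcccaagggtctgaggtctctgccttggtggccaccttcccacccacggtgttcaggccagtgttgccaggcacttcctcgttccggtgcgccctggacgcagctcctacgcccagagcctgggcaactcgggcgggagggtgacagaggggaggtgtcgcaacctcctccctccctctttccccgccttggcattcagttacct
Sucnr1 (chr3:60081619-60081868): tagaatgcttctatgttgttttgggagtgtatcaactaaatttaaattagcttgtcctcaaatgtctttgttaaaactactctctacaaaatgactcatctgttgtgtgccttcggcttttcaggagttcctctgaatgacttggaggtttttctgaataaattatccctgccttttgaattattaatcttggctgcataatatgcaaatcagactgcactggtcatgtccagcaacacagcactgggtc
Ffar2, the start farthest upstream of 4 (chr7:30823776-30824025): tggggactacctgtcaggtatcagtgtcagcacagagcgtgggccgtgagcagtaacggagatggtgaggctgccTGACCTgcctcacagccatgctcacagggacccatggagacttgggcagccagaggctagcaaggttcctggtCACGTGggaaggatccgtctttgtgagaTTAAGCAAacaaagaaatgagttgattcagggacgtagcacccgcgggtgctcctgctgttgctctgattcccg
The motifs were AGGTCA, the nuclear receptor half-site, found in 14.0% of all 32851 RefSeq mouse promoters of this length, CACGTG, the E-box (6.02%), TGACGTCA, the cAMP response element (1.55%), TTGCNNAA, the C/EBP core (9.56%), TATAAA (12.4%) and CCAAT (33.8%), each on both strands. Matches on the opposite strand read as the reverse complement. The Ffar2 window held 3 matches, to the half-site, the E-box and the C/EBP core. The Ffar4 and Sucnr1 windows held none, which says only that these letters are not in these windows. The Sucnr1 window was 38% G and C, against 61.2% for Ffar4 and 56.8% for Ffar2.

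Per length of exon, Sucnr1 was the most abundant of the 5 receptors. Its median over the 38 mice was 51.1 CPM per kb of exon, followed by Ffar2 with 29.0, Adora1 with 22.1, Ffar4 with 15.4 and Ptger3 with 10.7 CPM per kb. The exon lengths were 1640 bases for Sucnr1, 2790 for Ffar2, 5785 for Adora1, 1401 for Ffar4 and 5688 for Ptger3, from a later annotation than the one used for counting. Of the Adora1 exons, 1162 bases are shared with Mybph on the opposite strand, but Mybph itself did not exceed 0.369 CPM in any mouse. All other values below are CPM of 1 receptor compared between groups.

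Ffar4 was the receptor that fell most in obesity. Ffar4 (also called GPR120) binds long-chain unsaturated fatty acids, among them the omega-3 fatty acids, and is known for its anti-inflammatory and insulin-sensitising role in fat. At 8 weeks the 6 CD mice had between 20.1 and 37.4 CPM (median 26.8) and the 6 HFD mice between 16.6 and 40.6 CPM (median 25.0), so the diets overlapped over nearly the whole range. At 20 weeks the CD mice had between 11.3 and 31.3 CPM (median 20.7) and the HFD mice between 8.50 and 11.6 CPM (median 9.86). At 34 weeks the CD mice had between 19.9 and 68.1 CPM (median 43.5) and the HFD mice between 12.2 and 24.1 CPM (median 18.2).

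At 20 weeks 5 of the 6 HFD mice lay below every CD mouse, and at 34 weeks 4 of 6 did, while 7 of the 8 CD mice lay above every HFD mouse. The Ffar4 mean was 10.02 ± 1.30 CPM on HFD (SD, n = 6) against 21.6 ± 6.86 CPM on CD at 20 weeks, and 18.0 ± 4.48 CPM (n = 6) against 42.4 ± 16.9 CPM (n = 8) at 34 weeks. The log2 fold change of Ffar4 was −0.99 ± 0.24 (SE) at 20 weeks (limma adjusted p = 0.000847) and −1.12 ± 0.23 at 34 weeks (limma adjusted p = 0.000307). At 8 weeks it was −0.078 with a 95% interval from −0.57 to 0.41 (limma adjusted p = 0.815). The Ffar4 decreases at 20 and 34 weeks kept their direction and call under TMM factors, median-of-ratios size factors, scaling to the adipocyte markers and the edgeR count test, and with any 1 mouse left out.

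In these whole-fraction profiles, fewer adipocytes among the cells and less receptor RNA in each adipocyte cannot be told apart. The adipocyte markers moved with Ffar4: their summed level ranged from 32346 to 45152 CPM on CD and 24690 to 36662 CPM on HFD at 20 weeks, and 6 of the 9 markers fell (Cidec by 0.85, Pnpla2 by 0.82 on the log2 scale). At 34 weeks 8 of the 9 markers fell. Over all genes tested, 18.7% were called lower at 20 weeks and 15.7% at 34 weeks. With each mouse scaled to the geometric mean of these 9 genes, the Ffar4 log2 fold change was −0.50 (limma adjusted p = 0.0135) at 20 weeks and −0.59 (limma adjusted p = 0.00259) at 34 weeks. This scaling put the median of all genes at 0.634 and 0.605 at these times. As the RNA of the markers may itself differ in each adipocyte with the diet, it is not a measure of adipocyte content alone. The part of the macrophage RNA in the Ffar4 result was not tested.

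Sucnr1 was higher on HFD at 8 weeks and lower at 34 weeks, but relative to the adipocyte markers its 34-week value was above 0 and not called. Sucnr1 (GPR91) is the receptor of succinate, the citric acid cycle intermediate that leaves cells under metabolic or hypoxic stress, and it restrains lipolysis in adipocytes. At 8 weeks the HFD mice had between 108 and 131 CPM (median 123) and the CD mice between 63.7 and 89.8 CPM (median 80.5), with no overlap. At 20 weeks the ranges lay on each other, from 66.3 to 91.4 CPM on HFD (median 69.2) and 54.4 to 86.4 CPM on CD (median 74.0). At 34 weeks the HFD mice spread from 44.8 to 111 CPM (median 71.7) and the CD mice from 46.5 to 118 CPM (median 106).

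At 8 weeks the mean of Sucnr1 was 122 ± 7.83 CPM on HFD against 79.8 ± 9.19 CPM on CD (6 mice each), and the log2 fold change was 0.61 ± 0.19 (SE, limma adjusted p = 0.00805). Of all genes tested, 15.7% were higher on HFD with no overlap at 8 weeks. The Sucnr1 rise kept its call with any 1 mouse left out and under each scaling tried. At 20 weeks its log2 fold change was 0.038, with a 95% interval from −0.34 to 0.41, and it turned to −0.18 with TMM factors, −0.13 with median-of-ratios size factors and −0.17 in the edgeR count test, none of them called. Scaled to the adipocyte markers it was 0.56 at 20 weeks (limma adjusted p = 0.000301). The median of all genes under this scaling was 0.634, above the Sucnr1 value, and 7616 genes were called, against 5894 as deposited.

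At 34 weeks Sucnr1 was 74.1 ± 27.7 CPM on HFD (SD, n = 6) and 97.8 ± 23.9 CPM on CD (n = 8), a log2 fold change of −0.43 ± 0.17 (SE, limma adjusted p = 0.0437), which turned to 0.12 relative to the adipocyte markers (limma adjusted p = 0.357). The 34-week call was lost when CD mouse 1, 3, 4, 6, 7 or 8 or HFD mouse 2, 3 or 4 was left out (limma adjusted p between 0.0636 and 0.175), without the filter on low genes (0.0659) and in a fit of these 2 groups alone (0.205). In the HFD group at 34 weeks, mice 1, 5 and 6 had 111, 87.4 and 96.4 CPM of Sucnr1, and mice 2, 3 and 4 had 55.9, 44.8 and 49.2 CPM. Mice 2, 3 and 4 also had the lowest adipocyte marker sums of the group, 18833, 16322 and 21514 CPM, and the highest macrophage sums, 10590, 13041 and 14664 CPM. The part of cell composition in the 34-week difference was not tested.

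**Figure D1:**
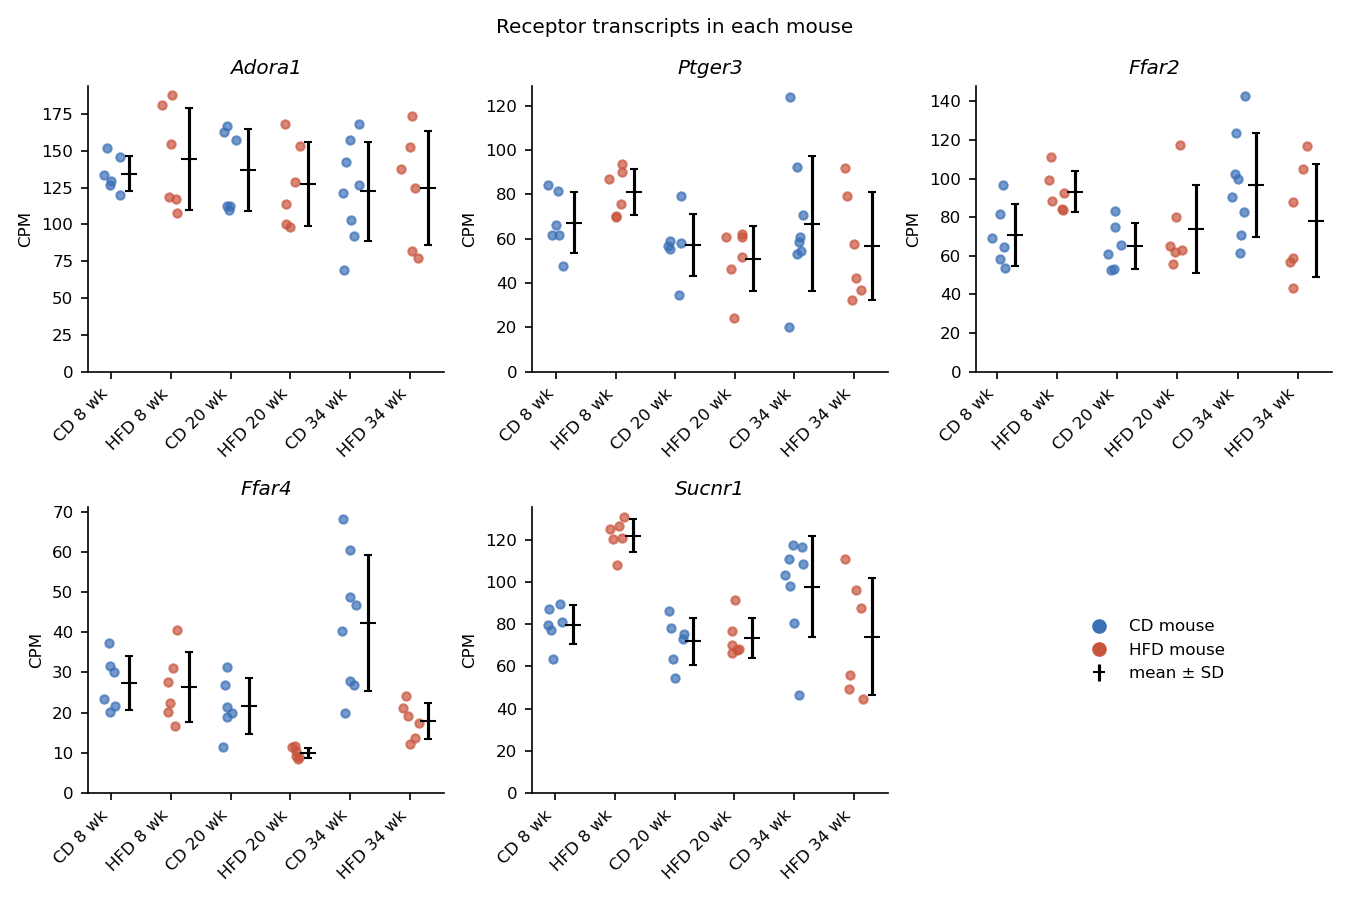
CPM of the 5 receptors (vertical axis, from 0) in each mouse of the 6 groups (horizontal axis), CD in blue and HFD in red, with the mean and SD in black. Sucnr1 is separated by diet at 8 weeks (108 to 131 CPM on HFD, 63.7 to 89.8 CPM on CD), and Ffar4 on HFD at 20 weeks is gathered between 8.50 and 11.6 CPM.

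Ffar2, Ptger3 and Adora1 did not pass the test between the diets at any time in the fit of all 6 groups of CPM as deposited. Ffar2 (GPR43) is the receptor of acetate, propionate and butyrate and lowers lipolysis when activated. Its 8-week values were 53.4 to 96.6 CPM on CD (median 66.9) and 83.8 to 111 CPM on HFD (median 90.4), and 5 of the 6 CD mice lay below every HFD mouse. The log2 fold change of Ffar2 was 0.42 at 8 weeks (95% interval −0.0031 to 0.83, limma adjusted p = 0.0983), 0.15 at 20 weeks (−0.27 to 0.57) and −0.34 at 34 weeks (−0.74 to 0.047, limma adjusted p = 0.145). At 34 weeks Ffar2 ran from 61.2 to 143 CPM on CD (median 95.1) and from 43.5 to 117 CPM on HFD (median 73.3), with wide overlap. The 8-week difference was called relative to the adipocyte markers (0.66, limma adjusted p = 0.00687) and in a fit of these 2 groups alone (0.42, limma adjusted p = 0.0178), but was 0.31 with TMM factors (limma adjusted p = 0.220). The 34-week test passed without HFD mouse 1 (−0.48, limma adjusted p = 0.0429). The 20-week value turned to −0.063 with TMM factors and was 0.67 relative to the adipocyte markers (limma adjusted p = 0.00234). Relative to these markers the median of all genes was 0.347 at 8 weeks and 0.634 at 20 weeks. At these times 4066 and 7616 genes were called, against 4648 and 5894 as deposited.

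Ptger3 encodes EP3, the prostaglandin E2 receptor through which this lipid holds back lipolysis. At 8 weeks Ptger3 was 67.2 ± 13.8 CPM on CD and 81.0 ± 10.5 CPM on HFD (SD, n = 6 each). At 20 weeks it was 57.1 ± 14.2 and 51.0 ± 14.6 CPM, and at 34 weeks 66.8 ± 30.6 CPM on CD (n = 8) and 56.8 ± 24.3 CPM on HFD (n = 6). The diets overlapped at each time. The log2 fold changes were 0.28 (95% interval −0.30 to 0.86), −0.19 (−0.77 to 0.39) and −0.19 (−0.73 to 0.35), with limma adjusted p = 0.428, 0.594 and 0.584.

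Adora1, the adenosine receptor that tonically restrains lipolysis in fat, was the steadiest of the 5 between groups. Its group means stayed between 123 and 145 CPM. The log2 fold changes for HFD against CD were 0.074 (95% interval −0.33 to 0.48), −0.11 (−0.51 to 0.29) and 0.012 (−0.36 to 0.39) at 8, 20 and 34 weeks, and the lowest limma adjusted p among its 15 pairs of groups was 0.291. Its values at 8 and 34 weeks turned to −0.032 and −0.077 with TMM factors. Relative to the adipocyte markers Adora1 was 0.56 higher on HFD at 34 weeks (limma adjusted p = 0.00726). This scaling put the median of all genes at 0.605, above the Adora1 value, and 7717 genes were called, against 4468 as deposited. Within CD at 8 weeks the 6 mice lay between 120 and 152 CPM, all inside the HFD range of 108 to 188 CPM.

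Of the 5 receptors, 1 was called higher on HFD at 8 weeks, where 29.8% of all genes tested were called higher and 44.9% in either direction. At 20 weeks 1 was called lower (18.7% of all genes lower, 57.0% either way), and at 34 weeks 2 were called lower (15.7% of all genes lower, 43.2% either way). The median log2 fold change of the 5 receptors was 0.28, −0.11 and −0.34 at 8, 20 and 34 weeks, beside 0.11, 0.14 and 0.074 over all genes tested. With TMM factors the median of all genes moved to 0.006, −0.071 and −0.012.

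**Figure D2:**
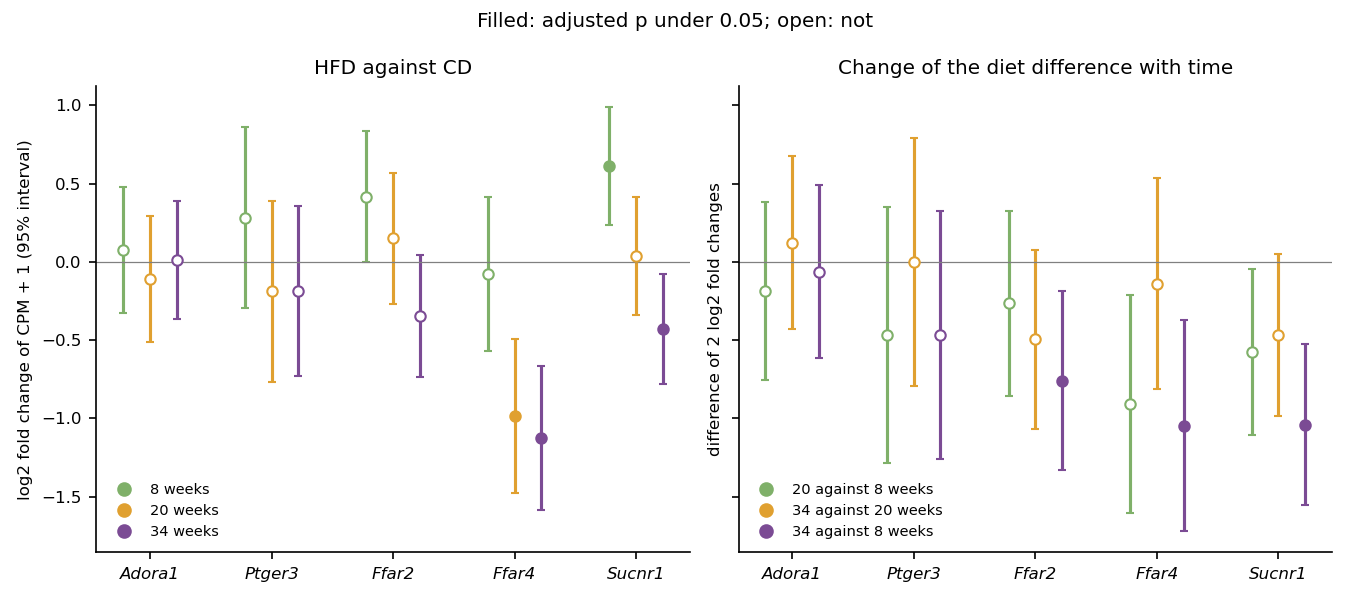
Log2 fold change of CPM + 1 (vertical axis) of each receptor for HFD against CD at 8, 20 and 34 weeks (left) and the change of that difference between times (right), with 95% intervals, filled where the adjusted p was under 0.05. Ffar4 falls to −0.99 and −1.12 at 20 and 34 weeks, and Sucnr1 goes from 0.61 at 8 weeks to −0.43 at 34 weeks (0.12 when scaled to the adipocyte markers).

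Whether the diet difference itself changed with time was tested with interaction contrasts. From 8 to 34 weeks it moved down for Sucnr1, by −1.04 ± 0.25 (SE, limma adjusted p = 0.00264), for Ffar4, by −1.05 ± 0.33 (limma adjusted p = 0.0173), and for Ffar2, by −0.76 ± 0.28 (limma adjusted p = 0.0406), while 15.9% of all genes moved down and 28.8% were called either way. Sucnr1 and Ffar4 kept this call with any 1 mouse left out and under each scaling tried. The Ffar2 call was lost in the edgeR count test (adjusted p = 0.0707), relative to the adipocyte markers (limma adjusted p = 0.218), without the filter on low genes (limma adjusted p = 0.0664), and when 1 of CD mice 1, 2, 4 or 6 or HFD mice 3, 4 or 6 at 8 weeks, or CD mice 2, 3 or 6 or HFD mice 2, 3 or 4 at 34 weeks, was left out (limma adjusted p between 0.0527 and 0.0987). The Ffar2 call was also lost in a fit of only the groups compared, with the mouse number as a block and with a 2-fold minimum. From 8 to 20 weeks no receptor passed (4.49% of all genes did), with Ffar4 at −0.91 (limma adjusted p = 0.0939, but −1.07 and 0.0326 without CD mouse 1 at 20 weeks) and Sucnr1 at −0.57 (limma adjusted p = 0.153). From 20 to 34 weeks none passed either (10.5% of all genes did), and Sucnr1 was at −0.47 (limma adjusted p = 0.229). At an unadjusted p under 0.05, Ffar4 and Sucnr1 passed from 8 to 20 weeks (p = 0.0120 and 0.0350 in the limma fit) and no receptor from 20 to 34 weeks. The share of all genes at this unadjusted threshold was not computed, so these passes have no background beside them.

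On CD, 3 of the 5 receptors rose from 20 to 34 weeks, of which only Ffar4 was called with TMM factors, median-of-ratios size factors or in the edgeR count test. Between 8 and 20 weeks on CD none of the 5 receptors passed the test in limma or in edgeR. Of all genes, 3.58% passed in limma at an adjusted p under 0.05. No receptor had an unadjusted p under 0.05 either, and the share of all genes at that threshold was not computed. From 20 to 34 weeks Ffar4 rose from 21.6 ± 6.86 to 42.4 ± 16.9 CPM, a log2 fold change of 0.89 ± 0.23 (SE, limma adjusted p = 0.00100), when 41.1% of all genes rose and 62.5% changed. Of the 8 CD mice at 34 weeks, 5 lay above every CD mouse at 20 weeks. Ffar2 rose by 0.54 (limma adjusted p = 0.0161) and Sucnr1 by 0.40 (limma adjusted p = 0.0416) over the same interval, and Adora1 (−0.19, limma adjusted p = 0.389) and Ptger3 (0.11, limma adjusted p = 0.731) did not pass. With TMM factors the Ffar4 rise was 0.74 and still called, but Ffar2 was 0.38 (limma adjusted p = 0.0870) and Sucnr1 0.25 (limma adjusted p = 0.254). The Sucnr1 call was also lost when CD mouse 1, 3 or 4 at 20 weeks or CD mouse 1, 3, 4, 6, 7 or 8 at 34 weeks was left out (limma adjusted p between 0.0557 and 0.112).

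Between 8 and 34 weeks on CD, Ffar4 was 0.54 higher (limma adjusted p = 0.0368, with 40.1% of all genes higher and 64.7% called). This call was lost with TMM factors (0.41, limma adjusted p = 0.147), in the edgeR count test (adjusted p = 0.0614), and when CD mouse 1, 2 or 6 at 8 weeks or 2, 4, 6 or 8 at 34 weeks was left out (limma adjusted p between 0.0597 and 0.0920). Sucnr1 was 0.25 higher (limma adjusted p = 0.209), and passed without CD mouse 5 at 34 weeks (0.39, limma adjusted p = 0.0217). Ffar2 was 0.43 higher (limma adjusted p = 0.0511), and passed without CD mouse 3 or 5 at 8 weeks or CD mouse 1, 4 or 5 at 34 weeks (limma adjusted p between 0.0197 and 0.0476). Relative to the adipocyte markers all 3 were called, Ffar4 at 0.78, Sucnr1 at 0.50 and Ffar2 at 0.68 (limma adjusted p = 0.000220, 0.000591 and 0.00150). This scaling put the median of all genes at 0.379, and 5891 genes were called, against 6696 as deposited.

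On HFD, Ffar4, Sucnr1 and Ptger3 fell between 8 and 20 weeks, of which only Ffar4 was called relative to the adipocyte markers (−0.84, limma adjusted p = 0.000940). Ffar4 went from 26.4 ± 8.68 to 10.02 ± 1.30 CPM, a log2 fold change of −1.26 ± 0.24 (SE, limma adjusted p = 0.000279). Sucnr1 went from 122 ± 7.83 to 73.4 ± 9.54 CPM, −0.73 ± 0.19 (limma adjusted p = 0.00288), and Ptger3 from 81.0 ± 10.5 to 51.0 ± 14.6 CPM, −0.71 ± 0.28 (limma adjusted p = 0.0477). For each of these 3 receptors all 6 mice at 20 weeks lay below all 6 mice at 8 weeks, which was so for 9.63% of all genes tested, while 15.3% were called lower and 36.5% in either direction. Relative to the adipocyte markers the Sucnr1 value was −0.28 (limma adjusted p = 0.0629) and the Ptger3 value −0.26 (limma adjusted p = 0.373), and neither was called. The Ptger3 call was further lost when any 1 of the 6 HFD mice at 8 weeks, or HFD mouse 2, 4 or 5 at 20 weeks, was left out (limma adjusted p between 0.0509 and 0.146). Without HFD mouse 4 at 20 weeks Ffar2 was also called, at −0.51 (limma adjusted p = 0.0473), from −0.37 with all mice (limma adjusted p = 0.153). Adora1 was at −0.18 (limma adjusted p = 0.493), and relative to the adipocyte markers Adora1 (0.28) and Ffar2 (0.081) lay above 0.

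From 20 to 34 weeks on HFD Ffar4 rose again, from 10.02 to 18.0 CPM, a log2 fold change of 0.76 ± 0.24 (SE, limma adjusted p = 0.0183), with all 6 mice at 34 weeks above all 6 at 20 weeks, which was so for 7.63% of all genes tested. No other receptor passed there, where 17.8% of all genes were called higher and 30.2% either way. Over the whole course from 8 to 34 weeks on HFD, Sucnr1 was lower by −0.79 ± 0.19 (limma adjusted p = 0.000616, with 20.8% of all genes lower and 52.5% called), and by −0.24 relative to the adipocyte markers (limma adjusted p = 0.0845). Ffar4 was at −0.51 (limma adjusted p = 0.0765) and Ptger3 at −0.60 (limma adjusted p = 0.0746), and relative to the adipocyte markers they were at 0.025 and −0.054 (limma adjusted p = 0.906 and 0.855). Ffar4 passed without HFD mouse 3 at 8 weeks or HFD mouse 1 at 34 weeks (limma adjusted p = 0.0351 and 0.0466), and Ptger3 without HFD mouse 1 or 6 at 34 weeks (limma adjusted p = 0.0405 and 0.0264).

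**Figure D3:**
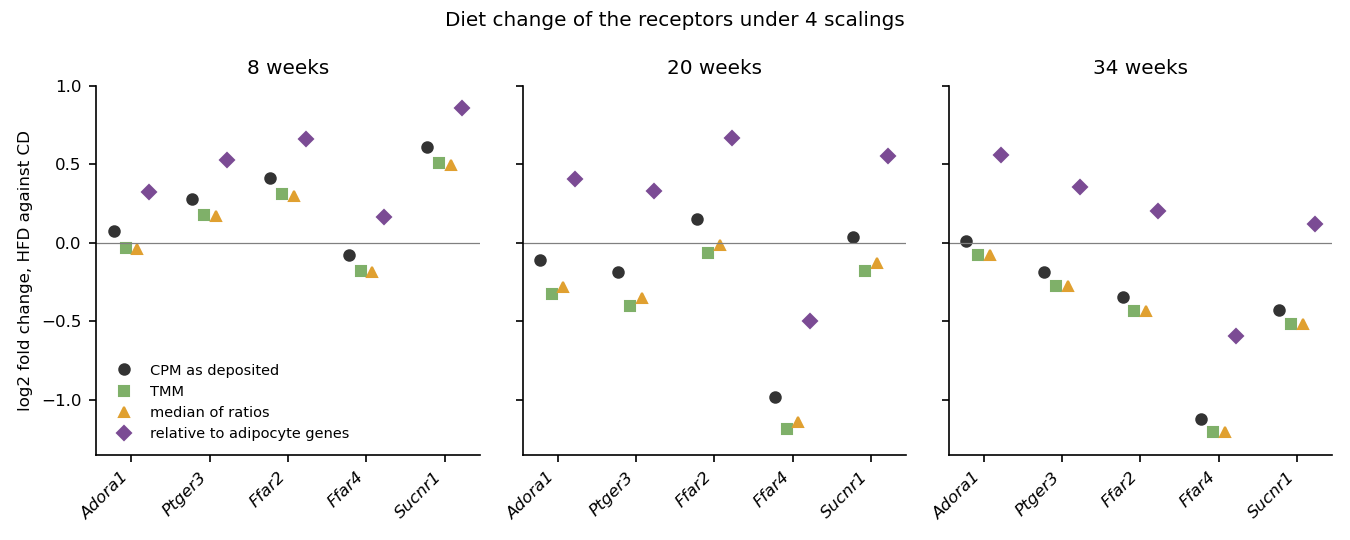
Log2 fold change for HFD against CD (vertical axis) of each receptor at 8, 20 and 34 weeks, from CPM as deposited, with TMM factors, with median-of-ratios size factors and relative to 9 adipocyte markers. Ffar4 at 20 and 34 weeks is below 0 under all 4 scalings, whereas Sucnr1 at 34 weeks goes from −0.43 to 0.12 relative to the adipocyte markers.

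Across the 6 groups, the order of the mean log2 levels differed from receptor to receptor. Ffar4 was highest in CD at 34 weeks and then fell through CD at 8 weeks, HFD at 8 weeks, CD at 20 weeks and HFD at 34 weeks to HFD at 20 weeks. Only the first step (0.54, limma adjusted p = 0.0368) and the last (0.76, limma adjusted p = 0.0183) exceeded the spread between mice, and the first of these was not called with TMM factors. Sucnr1 was highest in HFD at 8 weeks, followed by CD at 34 weeks, CD at 8 weeks, HFD at 20 weeks, CD at 20 weeks and HFD at 34 weeks, and no neighbours differed beyond their spread. For Ffar2 the order was CD at 34 weeks, HFD at 8 weeks, HFD at 34 weeks, HFD at 20 weeks, CD at 8 weeks and CD at 20 weeks, and for Ptger3 HFD at 8 weeks, CD at 8 weeks, CD at 34 weeks, CD at 20 weeks, HFD at 34 weeks and HFD at 20 weeks. Adora1 ran from HFD at 8 weeks through CD at 20 weeks, CD at 8 weeks, HFD at 20 weeks and HFD at 34 weeks to CD at 34 weeks. No neighbours of these 3 receptors passed the test. Of the 15 pairs of groups, Ffar4 differed in 10, Sucnr1 in 6, Ffar2 in 2, Ptger3 in 1 and Adora1 in none in the limma fit, where its lowest adjusted p was 0.291. For the 6 pairs that differ in both diet and time, 46.7%, 35.6%, 56.3%, 58.3%, 69.5% and 69.6% of all genes were called.

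The spread between mice grew with time for several receptors. The SD of Sucnr1 was 6.42% of the mean on HFD at 8 weeks and 37.4% on HFD at 34 weeks, and that of Ptger3 went from 12.95% to 42.9% on HFD and from 20.5% to 45.8% on CD. Ffar4 on HFD had its narrowest spread at 20 weeks, 13.01% of the mean. These SDs are given as a description.

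The receptors varied together from mouse to mouse to differing degrees. After the group means were taken out, Pearson's r over the 38 mice was 0.67 for Adora1 and Sucnr1, 0.63 for Ptger3 and Sucnr1, and 0.57 for Adora1 and Ptger3. Ffar2 was apart from Ptger3 (−0.058). With the summed adipocyte markers the within-group r was 0.70 for Sucnr1, 0.66 for Ffar2, 0.65 for Ffar4, 0.36 for Ptger3 and 0.25 for Adora1. With the summed lipid-associated macrophage markers (Trem2, Gpnmb and others) it was −0.71 for Ffar4, −0.55 for Ptger3, −0.53 for Sucnr1, −0.11 for Adora1 and 0.023 for Ffar2. These correlations are descriptions over libraries that share depth and cell makeup.

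The genes whose level followed each receptor most closely over the 38 mice were picked by the highest Pearson's r among 10095 genes. For Ffar4 they were Mlycd, malonyl-CoA decarboxylase (0.92), Rxrg, a retinoid X receptor (0.90), and H1f0, a linker histone (0.89). For Sucnr1 they were Mgll, the lipase that splits monoglycerides (0.90), Tdrp (0.88) and Fgfrl1 (0.88). Ptger3 went with Dgat2, which makes triglycerides (0.83), Pnpla3, a lipid hydrolase (0.82), and Syt12 (0.80). For Ffar2 the closest were Cmbl, Iscu and H2-T22 (0.75, 0.74 and 0.74), and for Adora1 Kpna6, Itga7 and Slc13a4 (0.75, 0.73 and 0.70).

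**Figure D4:**
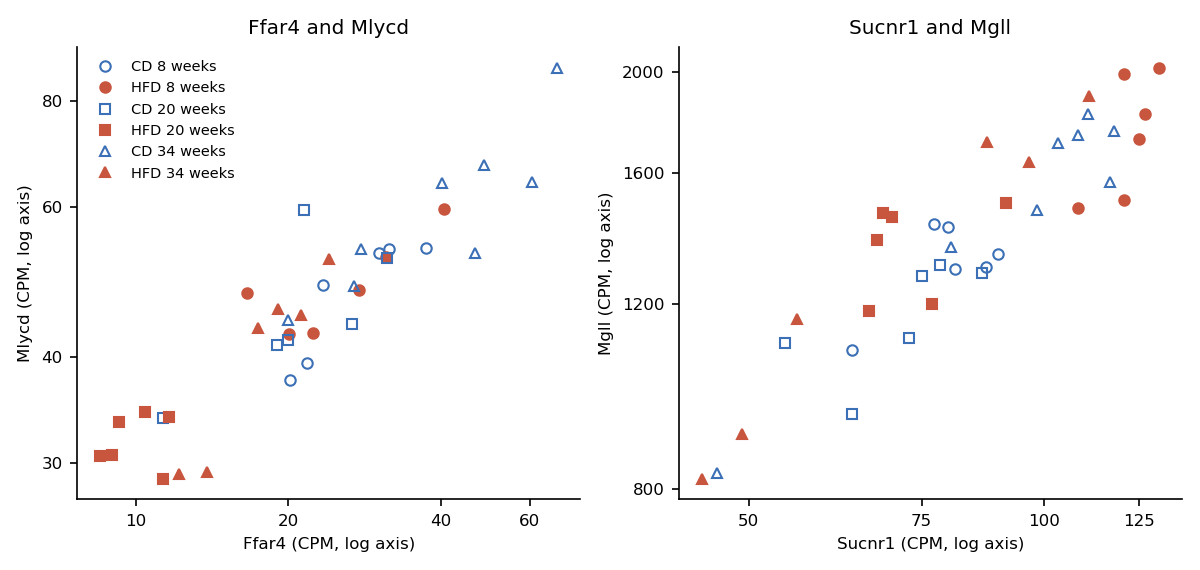
Ffar4 against Mlycd (left) and Sucnr1 against Mgll (right) in each of the 38 mice, both in CPM on log axes, with open blue symbols for CD and filled red symbols for HFD. The HFD mice at 20 weeks (squares) lie at the low end of both Ffar4 and Mlycd, and the HFD mice at 8 weeks (circles) at the high end of both Sucnr1 and Mgll (r over all mice 0.92 and 0.90).

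Of 11 receptors of the same families, listed beside the set, 4 passed the filter, namely Adora2a, Adora2b, Ptger4 and Gpr35, and 2 rose on HFD at 8 weeks, 3 at 20 weeks and 1 at 34 weeks, with none called lower by limma, where 29.8%, 38.3% and 27.5% of all genes were called higher and 15.1%, 18.7% and 15.7% lower. Whether these relatives differed from the set was not tested. Ptger4, the prostaglandin E2 receptor that couples to the stimulatory G protein, was 25.6 ± 8.15 CPM on HFD against 8.87 ± 2.54 CPM on CD at 20 weeks (log2 fold change 1.42, limma adjusted p = 0.00166) and 1.24 higher at 34 weeks (limma adjusted p = 0.00510). Adora2a, the stimulatory adenosine receptor, was 1.00 higher at 8 weeks (limma adjusted p = 0.00772) and 1.25 higher at 20 weeks (limma adjusted p = 0.000708), from low levels of 1.65 ± 1.15 and 2.58 ± 1.63 CPM on CD. Gpr35 was 1.09 and 1.35 higher at these times (limma adjusted p = 0.0361 and 0.00762). Macrophage markers rose in the same comparisons, 6 of 10 at 8 weeks, 7 of 10 at 20 weeks, when Cd163 fell, and 8 of 10 at 34 weeks (Cd68 by 1.78, 3.29 and 1.87), and their part in the rise of the relatives was not tested. Oxgr1 was at 0 in every mouse.

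Among 7 other receptors known to couple to Gi in fat cells, Cnr1, the cannabinoid receptor, was the only one that passed the filter. It fell from 29.9 ± 7.73 CPM on CD to 11.1 ± 2.53 CPM on HFD at 20 weeks, a log2 fold change of −1.34 (limma adjusted p = 2.79e-06), and was −0.52 at 34 weeks (limma adjusted p = 0.0307). Relative to the adipocyte markers Cnr1 was −0.85 at 20 weeks and −0.027 at 34 weeks.

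Of the genes that relay the signal of these receptors, Gng2 and Gng11 rose and Pde3b fell at each time. Of 20 tested G protein, receptor kinase, arrestin and phosphodiesterase genes, 9 rose and 2 fell on HFD at 8 weeks, 10 rose and 4 fell at 20 weeks, and 10 rose and 4 fell at 34 weeks, while 44.9%, 57.0% and 43.2% of all genes were called, also more of them higher (29.8%, 38.3% and 27.5%) than lower (15.1%, 18.7% and 15.7%). The median log2 fold changes of the 20 were 0.25, 0.25 and 0.28, beside 0.11, 0.14 and 0.074 over all genes, and of the called genes only Gna11 at 20 weeks changed sign under a scaling (from −0.47 to 0.047 relative to the adipocyte markers). Gng2 and Gng11 encode gamma subunits, and Gng2 rose by 1.47, 2.03 and 0.89. Most macrophage markers rose in the same comparisons, and their part in the rises of the relay genes was not tested. Pde3b fell by 0.52, 0.99 and 0.62 on the log2 scale (limma adjusted p = 0.0248, 3.93e-05 and 0.00498), from 717 ± 147 CPM on CD to 356 ± 68.7 CPM on HFD at 20 weeks, but relative to the adipocyte markers it was −0.27, −0.47 and −0.073. Gng7 was −0.78 at 20 weeks (limma adjusted p = 0.000130) and −0.69 at 34 weeks (limma adjusted p = 0.000662), and −0.30 and −0.19 relative to the adipocyte markers.

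Genes that supply the ligands were examined beside each receptor. Most macrophage markers also rose on HFD at each time, and their part in the changes of the supply genes below was not tested. For prostaglandin E2, the ligand of the Ptger3 receptor, the terminal synthase gene Ptges fell at each time, from 349 ± 111 CPM on CD to 46.4 ± 13.7 CPM on HFD at 20 weeks (log2 fold change −2.89, limma adjusted p = 5.30e-09), and by 1.08 and 1.73 at 8 and 34 weeks. Pla2g4a, which frees arachidonic acid, rose by 1.25, 1.78 and 0.90. Ptgs2, the inducible cyclooxygenase gene, was 2.35 higher at 20 weeks (limma adjusted p = 0.00789). In all, 3 of 8 such genes rose and 2 fell at 8 weeks, 4 rose and 1 fell at 20 weeks, and 2 rose and 2 fell at 34 weeks, near the 44.9%, 57.0% and 43.2% of all genes called. Ptges3 at 8 weeks (0.040) and Ptges2 at 34 weeks (0.10) turned above 0 relative to the adipocyte markers.

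For adenosine, the ligand of the Adora1 receptor, 3 of 7 listed genes passed the filter, and Nt5e was not among them. Entpd1, which breaks extracellular ATP down, rose by 1.73, 2.89 and 1.31, and Slc29a1, a nucleoside transporter, by 1.55, 2.64 and 1.44 at 8, 20 and 34 weeks. The part of the macrophage RNA in these 2 rises was not tested. Adk, the kinase that removes adenosine, was −0.35 at 20 weeks (limma adjusted p = 0.0499) and −0.46 at 34 weeks (limma adjusted p = 0.00992), and turned to 0.16 and 0.081 relative to the adipocyte markers.

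For succinate, the ligand of the Sucnr1 receptor, 7 genes were tested. At 8 weeks 1 rose and 2 fell, at 20 weeks none rose and 4 fell, and at 34 weeks none rose and 3 fell. Over all genes 29.8%, 38.3% and 27.5% were called higher and 15.1%, 18.7% and 15.7% lower (44.9%, 57.0% and 43.2% either way). Relative to the adipocyte markers Sdhb and Sdhd turned above 0 at 20 weeks, as did Sdha, Sdhd and Suclg2 at 34 weeks. Sdha, the catalytic subunit that consumes succinate, fell at each time (log2 fold change −0.34, −0.69 and −0.37, limma adjusted p = 0.0352, 4.27e-05 and 0.0142), but was −0.085, −0.17 and 0.18 relative to the adipocyte markers. Suclg2, a subunit of the enzyme that makes succinate from succinyl-CoA, fell by 0.83, 1.14 and 0.53 (0.012 at 34 weeks relative to the adipocyte markers), whereas Sucla2 was 0.41 higher at 8 weeks (limma adjusted p = 0.00699). At 8 weeks Sucnr1 itself was higher on HFD, and any relation of its rise to the changes of these genes was not tested.

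Among 5 genes that use short-chain fatty acids, the ligands of the Ffar2 receptor, Acss2, the cytosolic acetyl-CoA synthetase, went from 1.23 higher on HFD at 8 weeks (limma adjusted p = 0.0156) to −2.30 at 34 weeks (limma adjusted p = 5.41e-05). Its CD mice at 34 weeks averaged 483 ± 432 CPM. Acss3 fell at each time, by 0.79, 1.43 and 0.81. In all, 1 of the 5 rose and 2 fell at 8 weeks, and 3 fell at 20 and at 34 weeks. Over all genes 29.8%, 38.3% and 27.5% were called higher and 15.1%, 18.7% and 15.7% lower (44.9%, 57.0% and 43.2% either way). Pccb at 34 weeks turned to 0.13 relative to the adipocyte markers.

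For lactate, the ligand of the Hcar1 receptor, 5 genes were tested. The lactate exporter gene Slc16a3 was 1.95 higher at 20 weeks (limma adjusted p = 0.00107), from 2.07 to 10.6 CPM, and Slc16a1 was −1.24 (limma adjusted p = 1.34e-05) at that time. Ldhb was −0.72 at 20 weeks and −0.93 at 34 weeks (limma adjusted p = 0.000265 and 3.23e-05), and −0.21 and −0.39 relative to the adipocyte markers. In all, 1 lactate gene fell at 8 weeks, and 1 rose and 2 fell at both later times. Over all genes 29.8%, 38.3% and 27.5% were called higher and 15.1%, 18.7% and 15.7% lower (44.9%, 57.0% and 43.2% either way). Ldha at 34 weeks turned from −0.40 to 0.15 relative to the adipocyte markers.

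**Figure D5:**
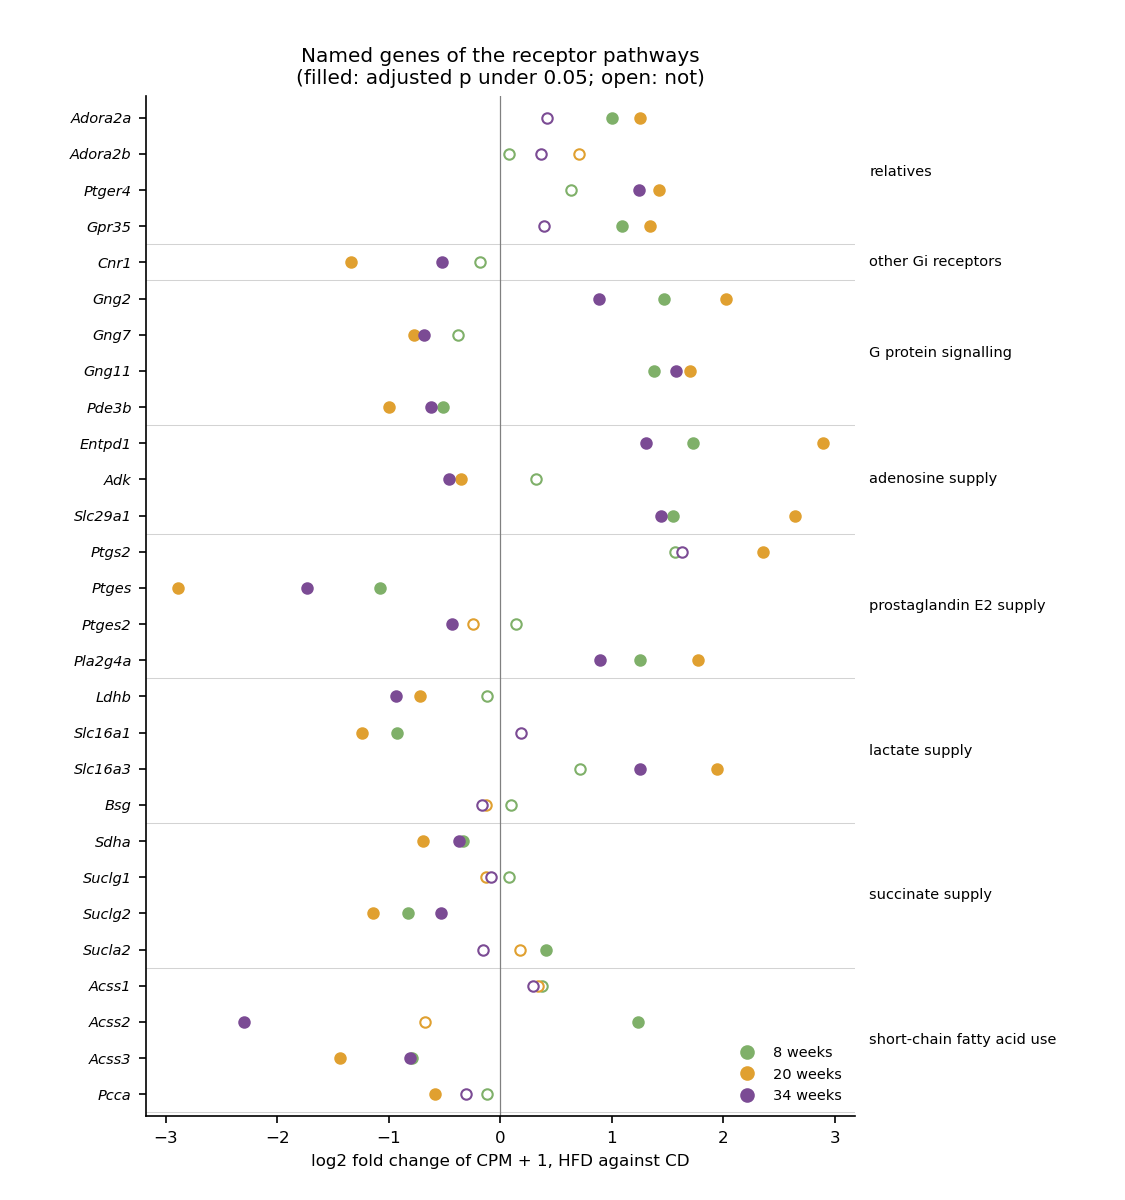
Log2 fold change of CPM + 1 for HFD against CD (horizontal axis) of the named genes of 8 lists at 8, 20 and 34 weeks, filled where the adjusted p was under 0.05. Ptges lies lowest at −2.89 at 20 weeks and Entpd1 highest at 2.89, and Adk, Sdha, Suclg2 and Ptges2 have called falls that turn above 0 relative to the adipocyte markers.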

How the data were processed

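Perigonadal adipocytes of 38 male mice were profiled by stranded polyA RNA-seq, with 3 technical replicates per mouse (114 labelled samples) held as 1 column per mouse. The authors aligned reads to mm10 with STAR, counted them over the exons of GENCODE genes with featureCounts and computed TMM factors with edgeR. The submitters' processing notes list STAR 2.5.2b and Subread 1.5.1. The deposited values are CPM, and each column summed to 1000000, so the deposited CPM carry no TMM scaling. Of the values, 100% were whole multiples of 1 read within 0.1 read. No columns of other samples were present.

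log2(CPM + 1) was fitted in limma 3.58.1 (R 4.3.3) with 6 group means and 32 residual degrees of freedom, and p-values were adjusted by Benjamini-Hochberg over the 10343 genes with mean log2(CPM + 1) above 2. Fold changes are on that scale, which understates changes of low genes. Tests are two-sided, with calls at an adjusted p under 0.05. Alternatives were a pseudocount of 0.25, no filter, TMM or median-of-ratios factors, scaling to 9 adipocyte markers, edgeR 4.0.16 quasi-likelihood on whole reads (4521, 6042 and 4478 genes called between diets at 8, 20 and 34 weeks, against 4648, 5894 and 4468), only the groups compared, mouse number as a block, each mouse left out and a 2-fold minimum. The limma fit was tested on simulated data.

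Listed genes were also given under each scaling, as values with no test, and this was added after seeing the data. The receptors and lists were chosen with earlier results of these data known. Beside the receptors, each pathway list names the tested genes with the 2 highest and 2 lowest mean diet changes, and each receptor its 3 genes of highest r, predicted genes left out. Mouse and replicate numbers are those of the labels. Mice of a group always differed by more than sampling noise. The limma p-values set a difference of group means against the spread between mice. That spread was shared over all 6 groups, except where only the groups compared were fitted. The list of ketone body genes is not reported here.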

Additional observations from a re-analysis of the deposited data

Results flagged for a closer look

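Among the 30 sets of 6 to 8 mice (5 receptors in 6 groups), 3 values, in 2 mice, stood far from the rest of their group, where chance alone gives about 1 in 20. Ptger3 was 24.0 CPM in HFD mouse 4 at 20 weeks, with the next lowest mouse at 46.3 CPM. In CD mouse 5 at 34 weeks Ptger3 was 19.9 CPM, with the next lowest at 53.2 CPM, and Sucnr1 was 46.5 CPM, with the next lowest at 80.4 CPM. This CD mouse also had the lowest Adora1 (69.3 CPM) and Ffar4 (19.9 CPM) of its group, the lowest adipocyte marker sum (28955 CPM) and the highest macrophage sum (12043 CPM).

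The diet difference changed between 8 and 34 weeks, by the interaction test, for 3 receptors: Sucnr1 (−1.04, limma adjusted p = 0.00264), Ffar4 (−1.05, limma adjusted p = 0.0173) and Ffar2 (−0.76, limma adjusted p = 0.0406). The Ffar2 call was kept in only 3 of 9 other settings and was lost in 13 of 26 fits with 1 mouse left out.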

How the results depend on the processing

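Of 540 receptor values recomputed under the 9 settings other than leaving out a mouse, 453 kept direction and call, 39 lost a call, 12 gained one and 36 changed sign. With a pseudocount of 0.25 all 60 values kept both. The Ffar4 decreases at 20 and 34 weeks, the Sucnr1 rise at 8 weeks and the Ffar4 and Sucnr1 changes of the diet difference from 8 to 34 weeks kept their direction and an adjusted p under 0.05 in every setting, except that a 2-fold minimum ended the call of Sucnr1 at 8 weeks (0.61) and of Ffar4 at 20 weeks (−0.99).

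Scaling to the adipocyte markers put the median of all genes at 0.35, 0.63 and 0.61 between diets at 8, 20 and 34 weeks. As deposited these medians were 0.11, 0.14 and 0.074. Relative to the adipocyte markers 20 values changed sign. For HFD against CD these were Ffar4 at 8 weeks (0.16), Adora1 (0.41) and Ptger3 (0.33) at 20 weeks, and Ptger3 (0.36), Ffar2 (0.20) and Sucnr1 (0.12) at 34 weeks. Over time on CD they were Ffar2 (0.077) and Sucnr1 (0.028) from 8 to 20 weeks and Adora1 (0.076) and Ptger3 (0.12) from 8 to 34 weeks. On HFD they were Adora1 (0.28) and Ffar2 (0.081) from 8 to 20 weeks, Adora1 (0.035) and Sucnr1 (0.035) from 20 to 34 weeks, and Adora1 (0.31), Ffar2 (0.22) and Ffar4 (0.025) from 8 to 34 weeks. The diet differences of Adora1 (0.084) and Ffar2 (0.0038) from 8 to 20 weeks and of Adora1 from 8 to 34 weeks (0.24) also turned. Receptors called became 2 at 8 weeks and 3 at 20 weeks between diets, 3 on CD from 8 to 34 weeks, and on HFD 1 from 8 to 20 and 0 from 8 to 34 weeks. In these comparisons 4066, 7616, 5891, 5038 and 7001 of all genes were called, against 4648, 5894, 6696, 3772 and 5432 as deposited. The cause was not tested.

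With TMM factors, median-of-ratios factors and edgeR, in this order, the diet values that changed sign were Adora1 at 8 weeks (−0.032, −0.040, −0.014), Ffar2 (−0.063, −0.015, −0.012) and Sucnr1 (−0.18, −0.13, −0.17) at 20 weeks and Adora1 at 34 weeks (−0.077, −0.077, −0.083). Ptger3 on CD from 20 to 34 weeks turned with both factors (−0.043, −0.026), and Ffar2 on HFD from 20 to 34 weeks with the second (−0.020). All 3 left 1 receptor called on CD from 20 to 34 weeks (6082, 6134 and 6219 genes) and 0 from 8 to 34 weeks (6561, 6596 and 6650 genes). TMM and edgeR called 2 on HFD from 8 to 34 weeks (5420 and 5424 genes).

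A fit of only the groups compared called 2 receptors at 8 weeks and 1 at 34 weeks between diets (5718 and 2457 genes). It called 0 on CD and 2 on HFD from 8 to 34 weeks (6018 and 4935 genes), and 2 for the diet difference from 8 to 20 weeks (2698 genes). Without the filter, 1 was called between diets at 34 weeks (5423 of 21166 genes) and 0 on CD from 8 to 34 weeks (8141 genes). A 2-fold minimum left 0, 0 and 1 between diets (1191, 1863 and 1019 genes). It left 0 on CD in both later comparisons (1469 and 1585 genes), and 1, 0 and 0 on HFD (946, 360 and 1336 genes). The mouse number as a replicate block left 1 receptor called between diets at 34 weeks and turned Adora1 in the 8 to 34 week difference (0.013); mice of one number shared no deviation (mean r between −0.083 and −0.00096), so the numbers did not pair them.

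With 1 mouse left out, receptors called ranged from 1 to 3 between diets at 34 weeks, 0 to 3 on CD and 1 to 3 on HFD from 8 to 34 weeks, and 0 to 1 for the diet difference from 8 to 20 weeks. Values that crossed 0 between diets were Adora1 (−0.0079 to 0.15) and Ffar4 (−0.21 to 0.038) at 8 weeks, Ptger3 (−0.32 to 0.011) and Sucnr1 (−0.038 to 0.094) at 20 weeks and Adora1 (−0.097 to 0.14) at 34 weeks. On CD they were Adora1 from 8 to 20 weeks (−0.055 to 0.065) and Ptger3 from 20 to 34 (−0.036 to 0.33) and 8 to 34 weeks (−0.28 to 0.088). On HFD from 20 to 34 weeks they were Adora1 (−0.17 to 0.062), Ptger3 (−0.086 to 0.25), Ffar2 (−0.092 to 0.19) and Sucnr1 (−0.19 to 0.064). For the diet difference they were Ptger3 (−0.22 to 0.15) and Ffar4 (−0.27 to 0.024) from 20 to 34 weeks and Adora1 from 8 to 34 weeks (−0.17 to 0.063). The fewest reads on a receptor in any mouse were 122, and the part of depth in the values was not tested.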
